A study of Mus musculus with 4 samples.

Results

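Ccl3, Ccl4, Ccl5 and Ccl9 are 4 of the 32285 genes counted in sorted mouse bone marrow progenitors, and 4 of the 21 CC chemokine ligand genes considered here. They were taken by gene symbol. They had been picked on their measured levels in these same libraries, because Ccl5 stood above the control in the double mutant while Ccl3 and Ccl4 stood below it. The library levels, the shares of UMIs (unique molecular identifiers, the counted molecules) in the highest cells and the marker gates of the carrying cells are therefore descriptions and carry no test.

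The study sequenced single cells from 4 genotypes, with 1 library for each. Marrow of 5 mice aged 8 to 12 weeks was pooled per genotype, enriched for Kit on magnetic beads and sorted as LSK cells, the Lin-Sca-1+Kit+ gate that holds stem cells and early multipotent progenitors. The control carried Vav1-iCre/+, a transgene that drives Cre recombinase in blood-forming cells, and all 4 genotypes carried it. The Ikk2CA library added one Ikk2-CA allele, which makes an always-active version of the kinase at the head of canonical NF-kB signalling, behind a floxed stop in the R26 locus. The Jak2V617F library added one floxed Jak2 V617F allele, an activating mutation of myeloproliferative neoplasms. The double mutant carried Vav1-iCre and both alleles. The strains had also been crossed to a cis-NF-kB EGFP reporter line of FVB origin, and the labels do not say which libraries carried the reporter. Because the alleles were switched on in all blood-forming cells, the mature blood cells of these mice carried them as well, and because the mice were pooled, no spread between mice can be given.

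CC chemokines are small secreted proteins that draw leukocytes along a gradient through G-protein-coupled receptors. Ccl3 binds Ccr1 and is known as an inhibitor of stem and progenitor cell proliferation. Ccl4 is a close relative of Ccl3 that attracts monocytes and lymphocytes, Ccl5 acts through receptors that include Ccr1 and Ccr3 and is a typical product of natural killer (NK) cells and memory T cells, and Ccl9 acts through Ccr1 and is made by myeloid cells. NF-kB is a textbook activator of Ccl3, Ccl4 and Ccl5.

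All 4 genes lie on chromosome 11 within 138.9 kb (mm10, GENCODE M21), and no other annotated gene overlaps any of them. Ccl5 (ENSMUSG00000035042, chr11:83525778-83530518, minus strand) has 3 exons. Ccl9 (ENSMUSG00000019122, chr11:83572919-83578636, minus strand) has 4 exons. Ccl3 (ENSMUSG00000000982, chr11:83647844-83649355, minus strand) and Ccl4 (ENSMUSG00000018930, chr11:83662584-83664683, plus strand) have 3 exons each, and Ccl4 lies 14.74 kb from Ccl3. RefSeq start windows (GRCm38.p6) matched 2 of the 4 members, Ccl3 and Ccl9. Their 250 bases before the start are shown because both genes lie in the same cluster and their levels moved differently between the libraries. Both run 5′ to 3′ on the minus strand, Ccl3 at chr11:83649379-83649628 and Ccl9 at chr11:83578637-83578886, and capitals mark a match to one of the motifs searched.
Ccl3: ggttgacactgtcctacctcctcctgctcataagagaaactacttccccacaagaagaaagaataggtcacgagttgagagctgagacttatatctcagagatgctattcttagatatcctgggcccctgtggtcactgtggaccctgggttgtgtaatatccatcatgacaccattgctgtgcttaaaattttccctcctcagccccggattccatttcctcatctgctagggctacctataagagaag
Ccl9: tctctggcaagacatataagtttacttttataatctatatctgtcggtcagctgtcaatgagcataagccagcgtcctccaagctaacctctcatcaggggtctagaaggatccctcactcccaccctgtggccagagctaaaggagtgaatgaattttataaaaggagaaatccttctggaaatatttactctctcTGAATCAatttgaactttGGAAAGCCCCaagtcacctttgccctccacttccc
Motifs were searched on both strands, and AP-1 letters read the same on both. The NF-kB letters, GGG and CC with 5 bases of any kind between them, occur in 45.8% of 32851 RefSeq windows of this length, TGANTCA (AP-1) in 6.75%, TTCNNNGAA (STAT) in 7.02% and the interferon response letters, GAAA and GAAA with 2 bases of any kind between them, in 2.98%. The Ccl9 window holds an NF-kB match on its opposite strand, 35 to 26 bases before the start, and an AP-1 match 53 to 47 bases before it. The Ccl3 window holds no match to these letters.

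After the barcode filter 8055 control, 9865 Ikk2CA, 14156 Jak2V617F and 5268 double mutant cells were kept, with median depths of 10606, 17726, 11106.5 and 24915 UMIs and library totals of 102362297, 197836491, 182778171 and 142211877 UMIs. Of the 37344 kept cells, 161 had a barcode that also occurred in another library. The libraries differed in the mix of sexes: Xist, the transcript of the inactive X, was detected in 58.5%, 24.3%, 0.360% and 29.1% of cells with at least 5000 UMIs. Stem cell markers were present in each library, with summed levels of 398 CPM (UMIs per 1000000 UMIs of the library) in the control, 118 in Ikk2CA, 387 in Jak2V617F and 190 in the double mutant. Stromal and endothelial markers summed to 1.37 to 3.53 CPM. Genes were compared where either library reached 10 CPM, and a gene was counted as higher or lower from a 2-fold difference. Intervals are exact 95% intervals of counting error only, as 1 library per genotype leaves no replicate check. They do not cover which cells of a library were sampled. All ratios to the control share the same control library, and ratios between other pairs share libraries in the same way.

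Ccl3 was highest in Ikk2CA and lowest in the double mutant. Its level was 36.8 CPM (35.6 to 38.0) in the control, 54.3 (53.3 to 55.3) in Ikk2CA, 30.4 (29.6 to 31.2) in Jak2V617F and 9.20 (8.71 to 9.71) in the double mutant. None of the 4 intervals overlap, so the order Ikk2CA, control, Jak2V617F, double mutant is clear of counting error. The ratio to the control was 1.48 (1.42 to 1.53) in Ikk2CA and 0.826 (0.792 to 0.861) in Jak2V617F. Both are inside 2-fold. In the double mutant Ccl3 was 4.00-fold lower than in the control (ratio 0.250, 0.235 to 0.267) and 5.90-fold lower than in Ikk2CA (ratio 0.170, 0.160 to 0.180). Only 14 of the 8294 genes compared had a lower ratio of double mutant to control.

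Ccl4, the close relative of Ccl3, had the same highest and lowest library. It stood at 42.0 CPM (40.8 to 43.3) in the control, 109 (108 to 111) in Ikk2CA, 48.03 (47.03 to 49.05) in Jak2V617F and 15.5 (14.9 to 16.2) in the double mutant. Again no intervals overlap, but control and Jak2V617F were close, with a ratio of 1.14 (1.10 to 1.19). The Ikk2CA library was 2.60-fold above the control (2.52 to 2.69). The double mutant was 2.70-fold below the control (ratio 0.370, 0.351 to 0.389) and 7.04-fold below Ikk2CA (ratio 0.142, 0.136 to 0.148). The lower level in the double mutant is thus a feature of both genes against each of the other libraries, with ratios to Jak2V617F of 0.303 for Ccl3 and 0.324 for Ccl4.

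Ccl5 had its lowest level in the control and was higher in all 3 mutant libraries. Its level was 8.98 CPM (8.41 to 9.58) in the control, 75.5 (74.3 to 76.7) in Ikk2CA, 15.1 (14.6 to 15.7) in Jak2V617F and 42.8 (41.7 to 43.9) in the double mutant. The order Ikk2CA, double mutant, Jak2V617F, control has no overlapping intervals, and both libraries with the Ikk2-CA allele are above both without it. These intervals do not cover the weight of a few high cells. Without the 10 highest cells of each library Ccl5 stood at 4.18 CPM in the control and 65.4 in Ikk2CA. It then stood at 10.8 in Jak2V617F and 29.3 in the double mutant, in the same order but below each interval. In all kept cells the ratio to the control was 8.41 (7.87 to 9.0) in Ikk2CA, 1.68 (1.56 to 1.82) in Jak2V617F and 4.77 (4.45 to 5.11) in the double mutant. Only 21 of 8377 genes had a higher ratio in Ikk2CA, and 15 of 8294 in the double mutant. Against Ikk2CA the double mutant was 1.77-fold lower (ratio 0.567, 0.550 to 0.584), which is inside 2-fold, so Ccl5 shared the direction of Ccl3 and Ccl4 in that comparison and differed from them against the control.

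Ccl9 varied least among the members in whole libraries and passed 2-fold in none of the 5 comparisons of library levels. It stood at 78.2 CPM (76.5 to 79.9) in the control, 51.1 (50.1 to 52.1) in Ikk2CA, 77.1 (75.9 to 78.4) in Jak2V617F and 64.5 (63.1 to 65.8) in the double mutant. Control and Jak2V617F did not differ beyond counting error, with a ratio of 0.986 (0.960 to 1.01). The ratio to the control was 0.653 (0.634 to 0.673) in Ikk2CA and 0.824 (0.7998 to 0.8495) in the double mutant, and the double mutant was 1.26-fold above Ikk2CA (1.23 to 1.30).

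**Figure D1:**
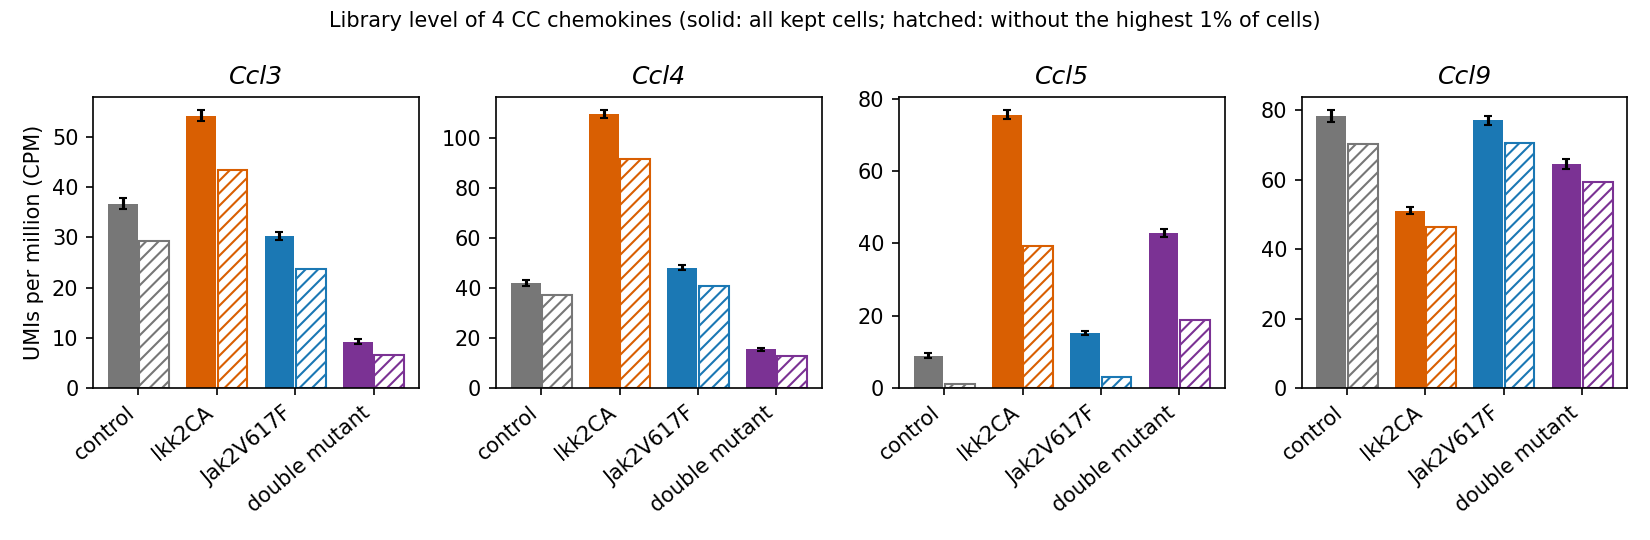
Level of each chemokine in CPM (vertical axis, from 0) in the 4 libraries, solid for all kept cells with exact 95% counting intervals and hatched without the highest 1% of cells for that gene. Ccl3 and Ccl4 are lowest in the double mutant (9.20 and 15.5 CPM), while Ccl5 is lowest in the control (8.98 CPM) and loses most of its height there without the highest cells (1.20 CPM).

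Against the background of all genes, 2 members (Ccl4 and Ccl5) were at least 2-fold higher in Ikk2CA than in the control, where 2.14% of 8377 genes were higher and 3.37% lower, and 0 members were lower. In Jak2V617F 0 members passed 2-fold, where 0.297% of genes were higher and 0.452% lower. In the double mutant against the control 1 member (Ccl5) was higher and 2 (Ccl3 and Ccl4) were lower, where 0.832% of 8294 genes were higher and 2.44% lower. Against Ikk2CA 0 members were higher and 2 lower (Ccl3 and Ccl4), with 0.348% of genes higher and 2.06% lower. Against Jak2V617F 1 was higher (Ccl5) and 2 were lower (Ccl3 and Ccl4), with 0.715% of genes higher and 1.13% lower. As the members were chosen for these contrasts, nothing is read from these counts. The members' median log2 ratio was 0.97, 0.09, -0.86, -1.69 and -0.94 in the 5 comparisons in this order, beside -0.23, -0.004, -0.24, 0.02 and -0.21 for all genes compared. The median gene was thus below -0.1 in 3 comparisons. Scaling by TMM (trimmed mean of M values) shifted these 3 by 0.24, 0.22 and 0.20 on the log2 scale, for Ikk2CA and the double mutant against the control and for the double mutant against Jak2V617F. The split of higher to lower genes then became 248 to 124, 114 to 101 and 79 to 38, and no member changed direction in these 3 comparisons.

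The double mutant was also set beside the level that the single mutants would give if their log2 differences added. For Ccl3 this level was 44.8 CPM, against 9.20 measured, a departure of -2.29 (log2). Ccl4 had an additive level of 125 CPM against 15.5 measured, a departure of -3.01. For Ccl5 the additive level was 127 CPM against 42.8 measured, a departure of -1.57, so that even the member above the control in the double mutant was below the sum of the single mutants. Ccl9 departed the other way by 0.36 (50.4 CPM against 64.5). Over 8536 genes the departure had a median of 0.02 and a range from the 5th to the 95th percentile of -0.54 to 0.50, which holds Ccl9 and not the other members. With 1 library per genotype this departure has no test.

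The members differed in how many cells held their UMIs. Ccl5 was held by few cells in the control and by many in Ikk2CA and the double mutant. In the control 2.51% of cells had a Ccl5 UMI, in Ikk2CA 30.6%, in Jak2V617F 4.23% and in the double mutant 25.8%. With each cell thinned to 5000 UMIs (838, 405, 1361 and 146 shallower cells left out) the shares were 1.40%, 14.97%, 2.41% and 9.37%. The highest 1% of cells held 86.7% of the control's Ccl5 UMIs, 48.6% in Ikk2CA, 80.7% in Jak2V617F and 56.7% in the double mutant. The upper 50% of Ccl5 UMIs lay in 9 control, 107 Ikk2CA, 31 Jak2V617F and 31 double mutant cells. Single cells reached 135, 252, 159 and 346 Ccl5 UMIs, the most of any member. Without the highest 1% of cells Ccl5 stood at 1.20 CPM in the control, 39.2 in Ikk2CA, 2.95 in Jak2V617F and 18.7 in the double mutant, so the order of the libraries was the same with and without these cells.

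Ccl3, Ccl4 and Ccl9 were spread over many cells. A Ccl3 UMI was found in 21.8% of control, 23.7% of Ikk2CA, 18.5% of Jak2V617F and 11.6% of double mutant cells, and after thinning in 14.0%, 13.3%, 10.7% and 4.45%. A Ccl4 UMI was found in 30.2%, 39.0%, 32.7% and 23.3% of cells, and after thinning in 19.7%, 23.2%, 19.01% and 8.65%. The double mutant was lowest for both genes although its cells were the deepest. Thinned, the share of Ccl3 cells was no larger in Ikk2CA than in the control, while the mean level in thinned cells was 66.5 against 49.5 CPM. Ikk2CA had more cells with many Ccl3 UMIs: at equal depth 178 of its cells (1.88%) had 5 or more, against 44 in the control (0.610%), 70 in Jak2V617F (0.547%) and 3 in the double mutant (0.0586%). For Ccl9, 35.8%, 33.1%, 38.4% and 45.1% of cells had a UMI, and after thinning 23.5%, 16.5%, 24.7% and 19.7%. The order of the unthinned Ccl9 shares therefore went against the library levels and is not read as an order. The highest 1% of cells held 20.6% to 29.1% of the Ccl3 UMIs, 12.7% to 18.2% of the Ccl4 UMIs and 9.48% to 12.0% of the Ccl9 UMIs.

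**Figure D2:**
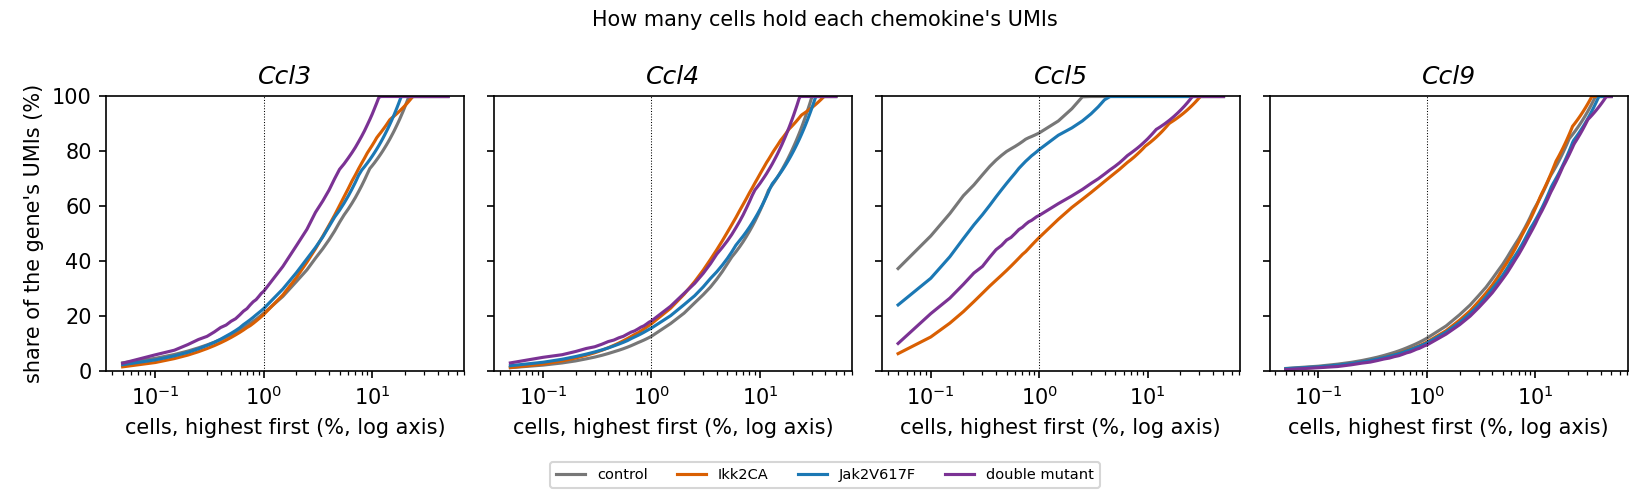
Share of each gene's UMIs (vertical axis, percent) held by the cells ranked from the highest down (horizontal axis, percent of cells, log scale), with 1 line per library and a dotted line at 1% of cells. For Ccl5 the highest 1% of control cells hold 86.7% of the UMIs and in Ikk2CA 48.6%, whereas for Ccl9 the 4 lines lie close together at 9.48% to 12.0%.

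The cells that carried Ccl3 and Ccl4 were looked up by marker gates, which take any cell with UMIs of at least 3 markers of a list and are not exclusive. The lymphoid-primed gate (Flt3, Dntt, Il7r, Satb1, Notch1, Ccr9, Rag1, Rag2) held 3253 control, 4350 Ikk2CA, 4091 Jak2V617F and 1554 double mutant cells. These held 69.7%, 61.2%, 58.5% and 56.7% of the Ccl3 UMIs, and 39.95% of them in the control at a gate of 4 markers. In the control the gate took 40.4% of cells and 45.7% of all UMIs. After thinning it took 24.8% of the control's cells and 47.6% of their Ccl3 UMIs. The Ccl3 level in the gate was 56.0, 71.0, 49.8 and 15.3 CPM, above the library level in each library. Ccl4 was less tied to this gate, with 55.0%, 55.8%, 41.9% and 39.3% of its UMIs and 50.52, 131, 56.4 and 18.0 CPM. In the stem cell gate (Hlf, Mecom, Procr and others) Ccl3 stood at 30.3, 38.8, 20.8 and 7.71 CPM and Ccl4 at 49.9, 102, 46.5 and 17.1 CPM. The double mutant was the lowest library in both gates for both genes. Among the 9 gates with at least 50 cells in both libraries, Ccl3 was lower in the double mutant than in the control in 9, each past 2-fold (ratios 0.195 to 0.446). Ccl4 was lower in 9, of which 8 passed 2-fold (0.319 to 0.510). Against Ikk2CA both were at least 2-fold lower in 10 of 10 gates (0.122 to 0.284 for Ccl3, 0.103 to 0.192 for Ccl4). Cells can pass several gates, so these gates share cells.

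Other genes in the highest cells differed between the libraries. In the control the 80 highest Ccl3 cells were led by Wfdc17, a secreted WAP-domain protein whose gene lies 56.15 kb from Ccl3, at 719 CPM against 152 in the remaining cells. In the double mutant Wfdc17 led again, at 322 against 28.7 CPM, with UMIs in 32 of 52 carriers. In Ikk2CA the 98 highest Ccl3 cells were led by basophil protease genes found in few of them (Prss34 in 1 cell, Mcpt8 in 9), followed by Ccl4, which was in 88 of 98 at 944 against 102 CPM. The mast-basophil markers summed to 52.6 CPM in the control, 114 in Ikk2CA, 37.9 in Jak2V617F and 122 in the double mutant, with 9 of 10, 10, 9 and 10 of the genes detected and Tpsb2 at 0 in the control and Jak2V617F. Their part in the members' levels was not tested. Ccl3 in turn led the highest Ccl4 cells of Ikk2CA, at 550 against 49.9 CPM in 77 of 98 cells. The highest Ccl4 cells of the double mutant were led by the mast cell protease gene Mcpt2, found in 1 of 52 cells (62.5 against 1.54 CPM). The interferon-induced genes Ifit1 (184 against 5.87 CPM, 6 of 52 cells) and Rsad2 (105 against 4.67 CPM, 14 of 52) followed. Next were Tpsb2 (117 against 6.71 CPM, 2 of 52) and Ccl5 (596 against 39.0 CPM, 16 of 52).

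Cells with NK markers held a large share of the Ccl5 UMIs in the control and in Jak2V617F, a smaller one in Ikk2CA and little in the double mutant. The NK and innate lymphoid gate, a lineage outside the LSK definition, held 25 control, 109 Ikk2CA, 86 Jak2V617F and 11 double mutant cells. These cells held 38.9%, 14.2%, 32.1% and 1.36% of the Ccl5 UMIs, at 1672, 1077, 1075 and 258 CPM. Of the gated cells 11, 45, 15 and 8 had exactly 3 markers, and 261, 656, 401 and 227 further cells had 2. At 4 markers the shares were 29.8%, 12.3%, 31.2% and 0.477%. The T cell gate held 7, 32, 9 and 3 cells with 20.5%, 5.14%, 1.92% and 0.148% of the Ccl5 UMIs. The NK markers summed to 227, 179, 225 and 217 CPM with all 10 detected in each library, but Nkg7 alone, also known from myeloid progenitors, made up 219, 156, 214 and 214 CPM of this. The defining NK gene Ncr1 stood at 0.616, 1.71, 1.57 and 0.0563 CPM and was thus lowest in the double mutant. The T cell markers summed to 22.2, 23.9, 15.7 and 13.2 CPM, mostly Lck, with Cd3e at 0 in the double mutant.

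Outside the NK and T gates Ccl5 stood at 5.51 CPM in the control, 65.1 in Ikk2CA, 10.3 in Jak2V617F and 42.2 in the double mutant. The difference between the double mutant and the control was larger there, 2.94 on the log2 scale against 2.25 in all cells. A Ccl5 UMI was found in 2.34%, 30.1%, 3.76% and 25.8% of the cells outside these gates. The erythroid gate, named for a cell type that should lack Ccl5, had a UMI in 0.857%, 24.0%, 3.13% and 12.5% of its cells. Median depths there were 15502, 22122, 18020 and 30940 UMIs. Thinned to 5000 UMIs these shares were 0%, 5.11%, 0.383% and 6.67% (3 of 45 cells in the double mutant), against 1.40%, 14.97%, 2.41% and 9.37% in whole libraries. This gate is not exclusive and is no clean measure of free RNA. In Ikk2CA it held 1037 cells with Ccl5 at 40.7 CPM, against 262 cells at 12.0 CPM in the erythroid-like cluster of the clusters described below. The thinned B cell gate had 1.30%, 3.15%, 1.43% and 3.77% (2 of 53 cells in the double mutant). These gates hold too few thinned double mutant cells for a firm background, and how far free RNA made up the low counts was not tested. High cells do not rest on single UMIs: 3 control, 48 Ikk2CA, 6 Jak2V617F and 21 double mutant cells had 50 or more Ccl5 UMIs and held 33.0%, 36.3%, 22.3% and 44.2% of all Ccl5 UMIs. Of those 21 double mutant cells 0 passed the NK or T gate, and 16 passed no gate of a committed lineage. Not counted as committed were the stem cell, lymphoid-primed, plasmacytoid dendritic, conventional dendritic and granulocyte-monocyte gates. The 16 cells may have passed these.

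The genes of the highest Ccl5 cells followed this split. In the control Xcl1, a chemokine of NK and CD8 T cells, led with 133 against 0.236 CPM in 12 of 80 cells, followed by the NK receptor gene Ncr1 (58.7 against 0.128 CPM). In Ikk2CA the NK receptor gene Klre1 (85.4 against 0.680 CPM, 28 of 98 cells) and Xcl1 (200.0 against 2.11 CPM, 32 cells) led. In Jak2V617F Ncr1 led (149 against 0.342 CPM, 51 of 141 cells). The double mutant had none of these among its 5 leading genes. They were the interferon-induced genes Ifit1 (169 against 5.35 CPM, 15 of 52 cells), Rsad2 (94.3 against 4.39 CPM, 15 cells) and Isg15 (155 against 25.9 CPM, 35 cells) and the lymphoid genes Ly6d (129 against 22.4 CPM, 7 cells) and Vpreb3 (1 cell). NK or T gated cells made up 14 of the 80 highest Ccl5 cells in the control, 35 of 98 in Ikk2CA, 56 of 141 in Jak2V617F and 2 of 52 in the double mutant. The lowest of these highest cells had 1, 25, 3 and 13 Ccl5 UMIs, so the sets are not alike. Cells with 10 or more Ccl5 UMIs numbered 9, 53, 31 and 2 in these gates and 7, 159, 32 and 64 outside them.

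At full depth Ccl5 was higher with the Ikk2-CA allele in each gate of at least 50 cells in both libraries. In Ikk2CA it was at least 2-fold above the control in 10 of 10 gates (ratios 2.55 to 52.2), and in the double mutant in 9 of 9 (6.495 to 15). Both highest ratios came from the erythroid gate described above, where the control stood at 0.779 CPM. How far free RNA added to the levels in the gates was not tested. Against Jak2V617F the double mutant was above in 9 of 9, with 8 past 2-fold, and after thinning in 8 of 9. In the stem cell gate its level was 3.65 CPM in the control, 43.4 in Ikk2CA, 8.30 in Jak2V617F and 34.0 in the double mutant. Cells of that gate after thinning had 4.13, 31.7, 13.1 and 11.6 CPM, so there the double mutant was slightly below Jak2V617F. Thinning also cut the gate itself, to 9.74% of the double mutant's cells. In the granulocyte-monocyte gate it was 4.79, 87.5, 11.1 and 44.3 CPM. The double mutant was below Ikk2CA in 10 of 10 gates, but past 2-fold in 1, and after thinning it was above Ikk2CA in 2.

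Most Ccl9 UMIs lay in cells that passed the granulocyte-monocyte gate. The granulocyte-monocyte gate (Elane, Mpo, Prtn3, Ctsg, Ms4a3, Fcnb, Gfi1, Cebpe) held 2744, 3996, 4460 and 2558 cells and 69.4%, 89.8%, 67.5% and 86.1% of the Ccl9 UMIs, and 39.5%, 63.7%, 37.6% and 62.6% at 4 markers. In the control this gate held 34.1% of cells and 44.7% of all UMIs. The granulocyte-monocyte-like cluster of the clusters described below was much smaller, with 3.25%, 4.30%, 2.56% and 3.42% of cells. It held 14.2%, 17.0%, 10.1% and 13.8% of the Ccl9 UMIs, so most lay in other clusters. The level in the gate was 121 CPM in the control, 88.5 in Ikk2CA, 118 in Jak2V617F and 92.4 in the double mutant. Both libraries with the Ikk2-CA allele were thus below both without it inside the gate. Of the highest 1% of Ccl9 cells, 78 of 80, 98 of 98, 130 of 141 and 52 of 52 passed it. These highest cells were deeper than their libraries, with medians of 23360, 29240, 21252 and 39707 UMIs, and depth affects which cells pass a gate. In the lymphoid-primed gate Ccl9 was 2-fold lower or more in Ikk2CA, at 46.4 against 96.3 CPM in the control (20.1 against 87.1 after thinning), the only one of 10 gates past 2-fold at full depth. In the stem cell gate it stood at 28.8 against 51.7 CPM (7.19 against 35.7 after thinning). In the megakaryocyte gate Ccl9 stood at 14.4, 13.2, 20.9 and 19.6 CPM. The markers of the gate itself summed to 2921, 2126, 2054 and 2150 CPM, lower in Jak2V617F than in the control while Ccl9 was at a like level in both. In the control and the double mutant the highest Ccl9 cells were led by neutrophil granule protease and myeloid genes. Among them were Ctsg (2567 against 474 CPM) and Mpo (3329 against 668 CPM) in the control and Mpo (2548 against 534 CPM) in the double mutant. In Ikk2CA the basophil protease genes Prss34 (336 against 2.36 CPM, 2 of 98 cells) and Mcpt8 (346 against 19.1 CPM, 40 of 98) led. Prg2 followed (558 against 83.7 CPM, 10 of 98). In Jak2V617F Cxcl10 led (56.4 against 7.47 CPM, 6 of 141 cells), followed by Ctsg (1800 against 359 CPM).

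**Figure D3:**
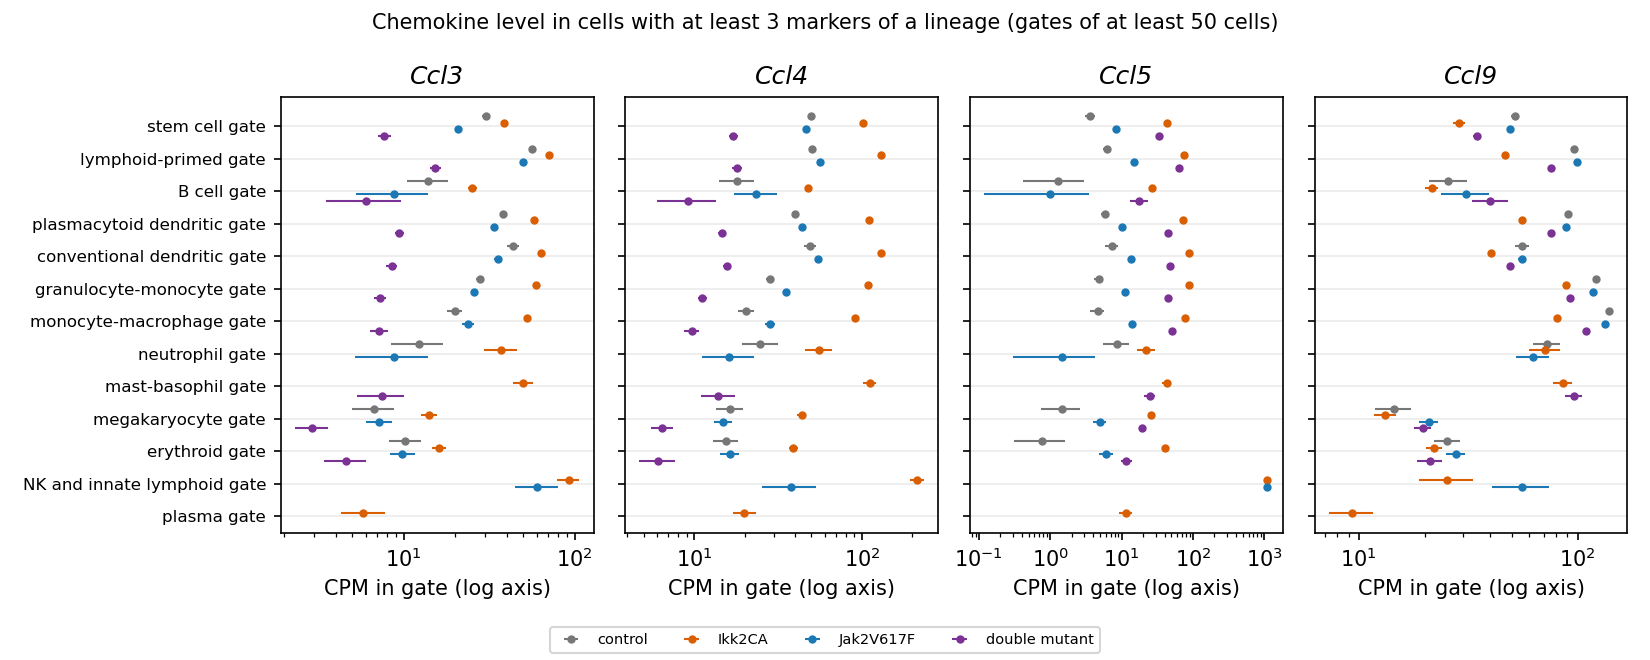
Level of each chemokine (horizontal axis, CPM, log scale) in cells with UMIs of at least 3 markers of a lineage, for gates with at least 50 cells, as points per library with exact 95% counting intervals. The double mutant is lowest for Ccl3 in the lymphoid-primed gate (15.3 CPM), and for Ccl5 the Ikk2CA and double mutant points are to the right of the control in the stem cell gate (43.4 and 34.0 against 3.65 CPM).

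Within each library Ccl3 and Ccl4 were higher in cells with more UMIs of immediate early genes, which cells induce within minutes of stimulation or of tissue dissociation. Between libraries the genes of this list and the 2 chemokines did not always differ in the same direction. The list holds 20 such genes, for example Fos, Fosb, Nr4a1 and Nr4a2, and was detected whole in each library. It summed to 1054 CPM in the control, 2641 in Ikk2CA, 1515 in Jak2V617F and 883 in the double mutant. Fos stood at 55.7, 411, 176 and 56.4 CPM and Nr4a1 at 2.28, 25.9, 11.6 and 1.58 CPM. In Ikk2CA 11 of 15 genes above the minimum level were at least 2-fold above the control, with a median log2 ratio of 1.68 beside -0.23 for all genes. In Jak2V617F this was 4 of 14 (median 0.51), and in the double mutant 0 of 13 (median -0.16). The double mutant had 13 of 15 at least 2-fold below Ikk2CA (median -1.60) and 4 of 14 below Jak2V617F (median -0.80). The order of the list's sum over the libraries, highest in Ikk2CA and lowest in the double mutant, is that of Ccl4. It is not that of Ccl3, which in Jak2V617F was below the control where the list's sum was above it. In the double mutant Ccl3 and Ccl4 were past 2-fold below the control while 0 of 13 list genes were.

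Cells were therefore split by their UMIs of this list after thinning to 5000 UMIs, a split chosen after the data had been seen. Within each library Ccl3 was higher in cells with more early-gene UMIs. In cells with 0 to 3, 4 to 9, 10 to 19 and 20 or more, its mean was 23.0, 47.4, 88.7 and 206 CPM in the control and 10.4, 29.98, 68.5 and 127 in Ikk2CA. In Jak2V617F it was 16.0, 28.4, 54.3 and 86.1, and in the double mutant 5.55, 13.9, 29.7 and 42.0. Ikk2CA was below the control in all 4 ranges, with ratios of 0.453, 0.633, 0.772 and 0.617, although its library level was 1.48-fold above. The ranges are wide and the last has no upper bound, so early-gene counts within a range need not be alike. The cells were distributed differently: 2400, 3395, 1296 and 126 control cells lay in the 4 ranges, against 1151, 2782, 2880 and 2647 in Ikk2CA. The Ccl3 difference between Ikk2CA and control thus changed direction with this split. The double mutant (2198, 2250, 593 and 81 cells) stayed below the control in each range, with ratios of 0.241, 0.293, 0.335 and 0.203.

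For Ccl4 the same split gave 30.1, 58.3, 92.4 and 132 CPM in the control, 22.8, 62.5, 146 and 271 in Ikk2CA, 27.5, 48.1, 88.4 and 131 in Jak2V617F and 13.3, 24.1, 38.1 and 131 in the double mutant. The ratio of Ikk2CA to control was 0.757, 1.07, 1.58 and 2.06 over the ranges, so Ikk2CA was above the control by 2-fold in the highest range alone, and in the range of 4 to 9 the interval (0.978 to 1.18) included 1. The ratio of the double mutant to the control was 0.442, 0.413, 0.412 and 0.993, the last from 81 cells with an interval of 0.690 to 1.42. Ccl5 had no common direction over the ranges. It was 12.3, 10.3, 9.26 and 4.76 CPM in the control, 56.1, 73.6, 117 and 109 in Ikk2CA, 6.46, 19.1, 19.8 and 25.1 in Jak2V617F and 53.1, 48.00, 30.02 and 34.6 in the double mutant. Its mean was thus higher in cells with more early-gene UMIs in Ikk2CA and Jak2V617F. It was lower in the double mutant, where the last interval (18.9 to 58.0 CPM) includes the first value. In the control all 4 intervals overlap, and the last value rests on 3 UMIs (0.982 to 13.9 CPM). The share of control cells with a Ccl5 UMI went the other way, at 1.167%, 1.384%, 1.775% and 2.381%. In the double mutant this share was 8.60%, 9.91%, 10.5% and 7.41%. The Ccl5 ratio to the control was 4.58, 7.14, 12.6 and 22.9 in Ikk2CA and 4.33, 4.66, 3.24 and 7.26 in the double mutant. The last ratio of each rests on the 3 control UMIs, with intervals of 7.81 to 111 and 2.03 to 39.4. Ccl9 was 84.5, 73.1, 69.8 and 52.4 CPM in the control, with an Ikk2CA ratio of 0.537, 0.642, 0.733 and 0.792. Early genes and members were counted in the same cells of 1 library per genotype, so genotype and handling of a library cannot be told apart here.

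**Figure D4:**
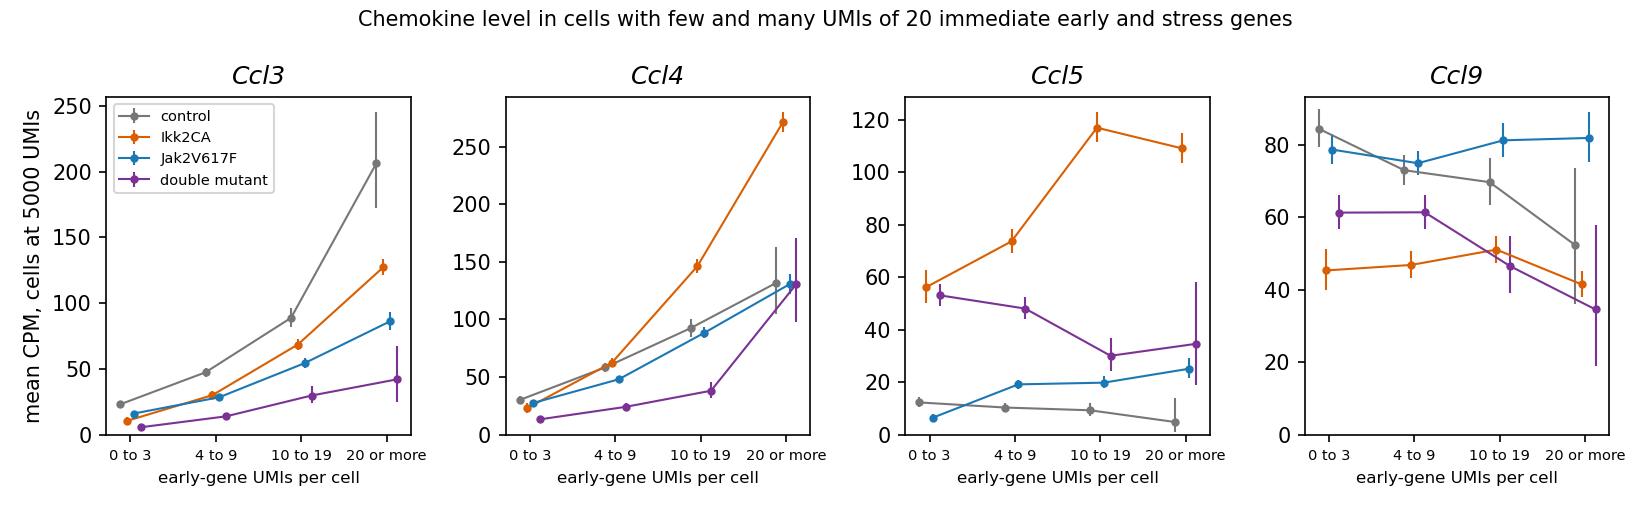
Mean level of each chemokine (vertical axis, CPM in cells thinned to 5000 UMIs, from 0) by the number of UMIs of 20 immediate early and stress genes in the cell (horizontal axis), as points joined per library with exact 95% counting intervals. Ccl3 is higher toward the right in all 4 libraries (23.0 to 206 CPM in the control), while Ccl5 in the control is not (12.3 to 4.76 CPM).

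Clusters were built without the 4 members to see whether the differences hold among like cells. The libraries fell mostly into separate clusters: of 25 clusters, 3 had at least 50 cells of both Ikk2CA and control, and 3 of both double mutant and control. Between double mutant and control Ccl3 was lower in 3 of 3 clusters with 0 past 2-fold (log2 ratios -0.93 to -0.45). Ccl4 was lower in 3 with 1 past 2-fold (-1.34 to -0.24). For these genes the differences were smaller than between the whole libraries, but they rest on few UMIs or on unusual cells. The -0.93 and -1.34 came from a B cell-like cluster with 50 double mutant cells. These held 2 Ccl3 and 4 Ccl4 UMIs, against 6 and 16 in the control cells. The granulocyte-monocyte-like cluster held 23 Ccl3 and 29 Ccl4 UMIs in the double mutant, against 29 and 34 in the control. Ccl5 had UMIs in both libraries in 2 of the 3, above the control in the granulocyte-monocyte-like cluster (2.96) and below it in the other (-0.41). Ccl9 was lower in 3, with 1 past 2-fold (-1.29 to -0.15). The values of -0.45, -0.24, -0.41 and -1.29 came from the remaining cluster. Its double mutant cells are described in the next paragraph, and their origin was not tested. These 3 clusters therefore cannot decide whether the differences between double mutant and control hold among like cells. Between Ikk2CA and control Ccl4 was at least 2-fold higher in 3 of 3 clusters, Ccl3 in 2 of 3 and Ccl5 in both clusters with UMIs in both libraries. Between double mutant and Ikk2CA 8 clusters could be compared. Ccl3 and Ccl4 were at least 2-fold lower in the double mutant in 8 of 8, and Ccl5 was lower in 8, of which 6 passed 2-fold. The cluster led by Nr4a2, Nr4a1 and Fos held 2240 Ikk2CA cells with 41.5% of that library's Ccl4 UMIs at 314 CPM and 37.2% of its Ccl3 UMIs at 140 CPM.

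In the double mutant 404 cells (7.67%) lay in a cluster with 2950 control cells and carried Ccl3, Ccl4 and Ccl5 at levels nearer to those control cells than to the rest of their library. Ccl3 stood at 39.6 CPM in them, against 54.2 in the control cells of the cluster and 7.84 in the other 4864 double mutant cells. Ccl4 stood at 61.5, 72.9 and 13.5 CPM in the same order, Ccl5 at 7.73, 10.3 and 44.4, and Ccl9 at 27.8, 68.1 and 66.1. For Ccl9 these 404 cells were below both. Xist was detected in 95.1% of them, against 23.4% of the other double mutant cells, their median depth was 14536 against 26199.5 UMIs, and 2 of their 404 barcodes also occurred in the control. Their origin was not tested. Without them the double mutant levels moved further from the control for Ccl3, Ccl4 and Ccl5.

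The pairs of members found in the same cell were led by Ccl3 and Ccl4. In thinned cells both were detected in 1.61 times as many control cells as the product of their shares gives, and in 2.37, 1.96 and 2.99 times as many in Ikk2CA, Jak2V617F and the double mutant. At full depth 782, 1558, 1270 and 269 cells had UMIs of both. Ccl4 and Ccl5 were detected together 1.31, 1.56, 1.66 and 1.06 times as often as the product, so nearly at it in the double mutant. Ccl5 and Ccl9 gave 0.844 in the control and 1.58, 1.37 and 1.56 in the other libraries.

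Genes whose level over cells was most like that of each member were ranked by the mean over the 4 libraries of Pearson's r of log values, from 8536 genes, as a description in which the cells of a library share its depth and handling. Ccl3 was most like Wfdc17 (0.30), Ccl4 (0.29), the lymphoid-primed genes Flt3 (0.25) and Satb1 (0.22), and Emb (0.20). Ccl4 was most like Ccl3 (0.29) and Wfdc17 (0.24), the next genes being 2410006H16Rik, mt-Co1 and Rps9 (0.22 each). Ccl3 and Ccl4 had an r of 0.20 in the control, 0.47 in Ikk2CA, 0.23 in Jak2V617F and 0.24 in the double mutant. Ccl5 was most like Klrd1 (0.24), an NK receptor gene, and Cd7 (0.22), then Id2 and Ctsw (0.19 each) and AW112010 (0.16). For Klrd1 the r was 0.32, 0.20, 0.41 and 0.04, lowest in the double mutant. Ccl9 had the closest likeness of any member, to the granule genes Mpo (0.47), Ctsg (0.45) and Prtn3 (0.43), and to Plac8 (0.38) and Rab44 (0.33).

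The other 17 CC ligands were low or near constant. Only 2 reached 10 CPM, and 0 of these 2 passed 2-fold in any of the 5 comparisons: Ccl25 at 15.1, 11.5, 14.2 and 11.4 CPM and Ccl27a at 17.4, 15.3, 17.0 and 14.4 CPM in control, Ikk2CA, Jak2V617F and double mutant. Of the rest 4 lay between 1 and 10 CPM in their highest library and 11 below, 4 of which had no UMI (Ccl11, Ccl20, Ccl21a, Ccl26). Below the minimum level, Ccl19 had the pattern of Ccl5 with 0.567, 8.58, 1.11 and 6.04 CPM, as did Ccl2 in part with 0.244, 1.52, 0.596 and 1.86 CPM. Among 17 other chemokine ligands 1 reached 10 CPM, the platelet chemokine Pf4 at 99.3, 444, 86.1 and 509 CPM.

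Ccr1 and Ccr3, receptors for members of the group, were low in these cells. Ccr1 stood at 0.772, 0.900, 1.09 and 0.802 CPM and Ccr3 at 0.694, 0.111, 0.295 and 0.309 CPM. Of 12 CC receptors 2 reached 10 CPM in Ikk2CA, Ccr2 at 9.58, 12.0, 7.28 and 4.29 CPM and Ccrl2 at 8.53, 12.1, 8.11 and 7.29 CPM. The double mutant had 1 of these 2, Ccr2, at least 2-fold below Ikk2CA. Of 12 other chemokine receptors 2 reached 10 CPM in that library, Cxcr4, which holds stem cells in the marrow, at 60.2, 29.5, 46.1 and 39.6 CPM, and Cx3cr1 at 2.47, 18.2, 2.71 and 5.72 CPM.

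The NF-kB feedback and subunit genes, known targets and parts of the pathway that Ikk2 starts, had a higher summed level in both libraries with the Ikk2-CA allele. The 15 genes summed to 387 CPM in the control, 746 in Ikk2CA, 419 in Jak2V617F and 601 in the double mutant. In Ikk2CA 5 of 14 were at least 2-fold above the control (median log2 ratio 0.76) and in the double mutant 3 of 13 (median 0.56), with 0 of 11 in Jak2V617F. Nfkbia, the main inhibitor of NF-kB, stood at 69.9, 325, 87.4 and 252 CPM, and the subunit gene Relb at 6.31, 34.9, 6.46 and 28.9 CPM. Tnfaip3, a deubiquitinase that damps the pathway, stood at 4.16, 19.5, 4.99 and 7.07 CPM. The double mutant had 2 of 14 at least 2-fold below Ikk2CA (median -0.32) and 3 of 13 above Jak2V617F (median 0.25). At the 2-fold rule Ccl5 was above the control in Ikk2CA and the double mutant and not in Jak2V617F, as were Nfkbia and Relb, whereas Ccl3 and Ccl4 were below it in the double mutant.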

How the data were processed

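Single-cell RNA libraries of sorted LSK cells were measured, 1 per genotype, each from 5 pooled mice. The files hold counts as deposited, whole UMI numbers per gene and cell. Per the file headers they were written by Cell Ranger 4.0.0, while the series' design text names version 3.0.1, and per the submitters' processing notes mm10 and Seurat 4.0.0 were used. Near-identical genes can lose reads in such counting. No cell annotation was used.

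The members and lists were chosen with earlier results of these data known. Barcodes with 500 to 7500 genes and under 10% mitochondrial UMIs were kept. UMIs were summed per library and divided by the library total (CPM). Ratios have exact conditional binomial intervals, levels exact Poisson intervals and shares exact binomial intervals, at 95%. No test was made and no p-value given, as there is 1 library per genotype. The rule was a 2-fold difference with at least 10 CPM in either library. Named were the 4 members, the 5 genes most like each, the 5 leading genes of its highest 1% of cells (at least 50 CPM there) and up to 4 genes per list. Genes without a role in the text were left out, and genes under the minimum level (Ccl19, Ccl2 and the receptors Ccr1 and Ccr3), as well as Ncr1, Nkg7, Lck, Cd3e and Tpsb2 among the markers, were named after their values had been seen. Gates took cells with UMIs of at least 3 markers of each of 16 lists, with 4 as an alternative. Cells were thinned to 5000 UMIs for shares. The 25 clusters came from 2000 variable genes, 30 principal components, 15 neighbours and Leiden resolution 1 without the members, and libraries were not integrated. Doublets were scored from simulated pairs and kept, and an alternative dropped 0.8% per 1000 barcodes. Scaling by edgeR 4.0.16 TMM and DESeq2 1.42.0 size factors (R 4.3.3) was tried as an alternative, and no count model was fitted. The computations, tested on simulated data, used scipy 1.17.1 for intervals, scikit-learn 1.9.0 and leidenalg 0.10.2 for clusters and pandas 2.3.3 under Python 3.11.15. The early-gene ranges and the removal of NK and T gated cells were chosen after seeing the data.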

Additional observations from a re-analysis of the deposited data

Results flagged for a closer look

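For 3 members the difference that went with an allele was opposite with and without the other allele, without overlap of the counting intervals. The change between backgrounds was not tested, as each value rests on 1 library per genotype. The libraries also differed in the mix of sexes, depth and early-gene level, which cannot be told apart from the alleles here. The Ikk2-CA allele went with more Ccl3 on the control background (log2 ratio 0.56) and with less on the Jak2V617F background (-1.72), a difference of -2.29. The first of these values turned to -0.66 among cells with 4 to 9 early-gene UMIs. For Ccl4 the values with the same allele were 1.38 and -1.63, a difference of -3.01. Among cells with 4 to 9 early-gene UMIs the value of 1.38 fell to 0.10. With the Jak2V617F allele Ccl4 had 0.19 on the control background and -2.82 on the Ikk2CA background, again a difference of -3.01. The value of 0.19 is small and 2 of 11 alternatives turned its sign. With the Jak2V617F allele Ccl5 had 0.75 and -0.82, a difference of -1.57. Over the early-gene ranges the value of 0.75 was -0.923 at 0 to 3 UMIs and 0.892, 1.095 and 2.398 in the higher ranges. The last of these rests on 3 Ccl5 UMIs in the control.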

How the results depend on the processing

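All values are log2 ratios of Ikk2CA to control and then of the double mutant to control, each for Ccl3, Ccl4, Ccl5 and Ccl9, and a value not given moved by less than its counting interval. TMM gave 0.81, 1.63, 3.32 and -0.37, then -1.78, -1.22, 2.47 and -0.059. Size factors by median of ratios gave 0.80, 1.62, 3.31 and -0.38, then -1.77, -1.21, 2.48 and -0.050. The mean over cells scaled to 1 total gave 0.49, 1.33, 2.62 and -0.73, then -1.89, -1.25, 1.62 and -0.36. A stricter barcode filter gave 0.65, 1.52 and 2.95 for the first 3, then -1.80 and -1.17 for Ccl3 and Ccl4. Cells with no Xist UMI gave 0.68 (Ccl3), 4.37 (Ccl5) and -0.49 (Ccl9), then -2.52, -1.90, 3.82 and -0.077. Without cells past a committed-lineage gate the values were 0.95, 1.92, 3.74 and -0.50, then -1.30 (Ccl4), 2.89 (Ccl5) and -0.37 (Ccl9). Without NK or T gated cells Ccl5 was at 3.56 and 2.94. Without the highest 1% of cells Ccl4 was at 1.30 and Ccl5 at 5.03, then Ccl3 at -2.15, Ccl4 at -1.53 and Ccl5 at 3.96. Without the cells of highest doublet score Ccl5 was at 2.93 and 2.13. In cells with 4 to 9 early-gene UMIs Ccl3 was at -0.66, Ccl4 at 0.10 and Ccl5 at 2.84, then Ccl3 at -1.77 and Ccl4 at -1.28.

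Among these comparisons 1 value, Ccl3 in Ikk2CA, changed sign, under the early-gene range, and Ccl4 in Ikk2CA came inside 2-fold there. Against Jak2V617F the double mutant's Ccl5 came inside 2-fold by the mean over cells (0.77) and Ccl4 in the early-gene range (-0.996). Against Ikk2CA its Ccl5 came past 2-fold without the highest 1% of cells (-1.07), and Ccl5 in Jak2V617F against the control came past it under 2 of 11 alternatives (up to 1.77). The cause was not tested. The numbers of genes past 2-fold, higher and lower, were with no minimum level 1604 and 3522 in Ikk2CA and 1384 and 3529 in the double mutant, and with a minimum of 50 CPM 77 and 52, then 24 and 26. With TMM they were 124 lower in Ikk2CA and 114 higher and 101 lower in the double mutant. For the other 3 comparisons no minimum level gave 1008 and 2368 (Jak2V617F to control), 2126 and 2695 (double mutant to Ikk2CA) and 1658 and 2803 (double mutant to Jak2V617F), and 50 CPM gave 9 and 10, 5 and 59, and 22 and 15. The other values, shares of cells and of UMIs, moved in most alternatives, as thinning and the gate's number of markers set them. No paired analysis was possible because there was 1 library per genotype. Depth sets the counting intervals, the shares of cells with a UMI and how many cells pass a gate, and no spread between libraries of a genotype can be given.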

Other observations

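Barcodes left out by the filter gave lower Ccl3 than kept cells in Ikk2CA (25.5 CPM) and the double mutant (5.90 CPM) and higher Ccl3 in the control (44.9 CPM) and Jak2V617F (51.6 CPM). For Ccl4 they gave 49.7, 62.7, 57.8 and 12.3 CPM in control, Ikk2CA, Jak2V617F and double mutant. For Ccl5 they gave 2.79, 39.1, 8.86 and 10.4 CPM, below the kept cells in each library. For Ccl9 they gave 119, 44.4, 102 and 80.2 CPM. With all barcodes counted the log2 ratios of each member in Ikk2CA and the double mutant to the control stayed within counting error of those in kept cells.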
